A study of Saccharomyces cerevisiae with 118 samples.

Results

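The PAU, DAN and TIR genes of *Saccharomyces cerevisiae* encode mannoproteins of the cell wall, the seripauperins and their larger relatives. In this yeast they are known as genes that are nearly silent in air and are induced when oxygen or haem runs short, when they take the place of the aerobic wall mannoproteins. The activator Upc2 acts on them through the AR1 site and the sterol response element, the haem-dependent repressor Rox1 acts through a short core site, and many PAU copies lie near chromosome ends.

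All rows named PAU with a number, DAN1 to DAN4 or TIR1 to TIR4 were taken, which gave 30 of the 6664 nuclear genes: 24 PAU, 2 DAN and 4 TIR genes. DAN2 and DAN3 are RefSeq synonyms of *PAU23* and *PAU24* and were counted under those names. Of the PAU genes, 19 lie within 25 kb of a chromosome end, and the other 5 (*PAU2*, *PAU5*, *PAU7*, *PAU17*, *PAU23*) do not. *TIR2* and *TIR4* are neighbours on chromosome XV, and *DAN1* and *DAN4* on chromosome X.

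The study aged diploid yeast carrying the mother enrichment program (MEP), in which the daughter-specific SCW11 promoter drives a Cre recombinase (Cre-EBD78) that oestradiol activates and that removes the floxed UBC9 and CDC20 genes from daughters, and it sequenced poly(A) RNA from 118 samples. All groups used here are diploids with this system. WT, P_GPD-HAP4, *snf4*Δ and *cox9*Δ *gal80*Δ also carry heterozygous TOM70-GFP and RPL13A-mCherry, which the sources used here do not give for the other strains, and only ageing cultures received oestradiol, so age and oestradiol cannot be told apart. On galactose, *cox9*Δ *gal80*Δ and *cat8*Δ had 2 samples at each age, *snf4*Δ had 1 at log and 2 at 24 h, and wild type (WT) had 3 at log phase, 24 h and 48 h. On glucose, P_GPD-HAP4, in which a strong constitutive promoter drives the respiratory activator Hap4, had 2 samples at each age, and WT had 3, 4 and 4. WT was also grown on fructose (2 at each age) and, with single samples, on acetate, sucrose, raffinose and a raffinose/galactose mix, with 1 more sample at 72 h each on glucose and acetate. Cells of P_GPD-HAP4 (2 experiments) and WT (1) at 48 h on glucose were sorted by Tom70-GFP and by staining with wheat germ agglutinin (WGA), which marks bud scars. The fractions are named here by WGA, and in experiment E36 the P_GPD-HAP4 titles call low WGA cells GFP high and high WGA cells GFP low, so that both markers cannot be told apart. In a shift series, WT cells aged first on 1 sugar and then on the same or the other sugar had 3 samples in each of 4 groups. This series also had 3 WT samples each at log and at 24 h on glucose and on galactose. Per the study, cells were moved at 24 h and the late groups were aged to 48 h, while the labels of the late samples say log. On glucose, 13 deletion strains (*adr1*Δ, *cat8*Δ, *clb5*Δ, *dot6*Δ *tod6*Δ, *gcn4*Δ, *hap4*Δ, *mig1*Δ, *pmr1*Δ, *rox1*Δ, *sip4*Δ, *snf4*Δ, *tec1*Δ, *yak1*Δ) had 1 sample at log and 1 at 48 h, with 1 of *pmr1*Δ at 24 h. Nothing in the labels says how separate the replicate cultures were, so the p-values measure the spread between these samples.

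Per sample, 2901884 to 15288342 reads were counted with carbon sources and mutants on them, 4542794 to 16704695 in the shift series, 3725321 to 22453467 with the deletion strains and 561582 to 5483467 in sorted fractions. The deleted genes had at most 21 reads in their own strains. The 13 genes listed as repressed in diploids summed to 28.5 to 333 RPM (reads scaled to the depth of the library, in the usual unit) over the carbon source samples, and 1 of them had a mean under 1 on this scale.

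The copies are so alike that most reads from several of them cannot be placed. Over 75 bases, the read length of the study, 7 members (*PAU1*, *PAU6*, *PAU9*, *PAU14*, *PAU18*, *PAU21*, *PAU22*) had no window that occurs once in the genome, and between 0 and 322 reads were counted for each of them over all 118 samples. Each of the 7 members with at least 90% unique windows had at least 4573 reads. The first 75 bases of 9 reading frames are printed to show which copies a read can tell apart, 5′ to 3′ on the coding strand from R64 as given by RefSeq, with capitals at the bases that differ from *PAU1*.
PAU1 (chrX:9064-9138, minus): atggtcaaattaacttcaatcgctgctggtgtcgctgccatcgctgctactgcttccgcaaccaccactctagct
PAU14 (chrIX:9081-9155, minus): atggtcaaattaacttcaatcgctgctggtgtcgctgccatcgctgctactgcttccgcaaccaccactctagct
PAU6 (chrXIV:781918-781992, plus): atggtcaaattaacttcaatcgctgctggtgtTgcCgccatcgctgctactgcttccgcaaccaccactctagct
PAU18 (chrXII:13371-13445, minus): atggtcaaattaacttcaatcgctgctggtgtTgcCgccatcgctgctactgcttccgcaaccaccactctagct
PAU24 (chrII:809057-809131, plus): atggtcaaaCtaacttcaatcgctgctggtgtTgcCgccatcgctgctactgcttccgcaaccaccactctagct
PAU4 (chrXII:1062919-1062993, plus): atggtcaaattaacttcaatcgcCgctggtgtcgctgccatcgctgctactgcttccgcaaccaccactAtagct
PAU5 (chrVI:99525-99599, minus): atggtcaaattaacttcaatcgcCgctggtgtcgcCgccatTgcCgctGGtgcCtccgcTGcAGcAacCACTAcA
PAU17 (chrXII:94747-94821, plus): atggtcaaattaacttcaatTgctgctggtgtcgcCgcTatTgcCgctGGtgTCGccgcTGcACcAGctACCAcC
PAU23 (chrXII:222985-223059, minus): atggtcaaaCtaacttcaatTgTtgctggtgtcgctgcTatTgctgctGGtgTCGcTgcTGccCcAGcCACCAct
*PAU1* and *PAU14*, like *PAU6* and *PAU18*, are identical over the whole reading frame, as are *PAU21* and *PAU22*. *PAU24* and *PAU4* differ from *PAU1* at 3 and 2 of these bases, and *PAU5*, *PAU17* and *PAU23* at 18, 21 and 21.

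**Figure D1:**
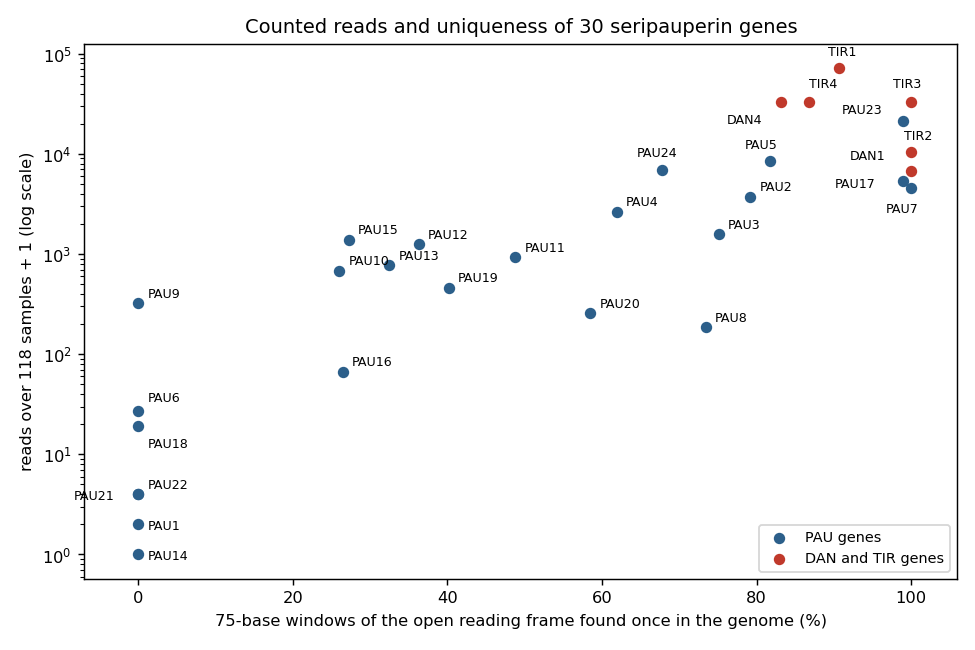
Reads counted for each of the 30 members over 118 samples plus 1 (log scale) against the share of 75-base windows of its reading frame that occur once in the genome, in percent, with PAU genes in blue and DAN and TIR genes in red. The 7 members at 0% hold at most 322 reads, and *TIR1*, *TIR3*, *TIR4*, *DAN4* and *PAU23* hold the most.

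Among the 22 PAU reading frames of at least 300 bases, identity to the nearest copy ran from 88.6% (*PAU5*) to 100% (6 genes). *DAN1*, *PAU7*, *TIR2* and *TIR3* were unique over every window, *PAU17* and *PAU23* over 99.0% and *TIR1* over 90.7%. *TIR4*, *DAN4*, *PAU5* and *PAU2* were unique over 86.8%, 83.2%, 81.7% and 79.2%, *PAU24* and *PAU4* over 67.8% and 61.9%. Reads that fit several places may have been shared, dropped or misplaced, so values of the PAU genes other than *PAU7*, *PAU17* and *PAU23* are uncertain.

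Short sites of the known regulators were frequent upstream of the members. AR1 (TCGTTNAG) was found on either strand within 500 bases of the start in 22 of 30 members (73.3%), against 5.01% of all nuclear genes. The sterol response element (TCGTATA) was found in 12 members (40.0%), against 6.77% of all genes, and the Rox1 core (ATTGTT) in 22 members (73.3%), against 48.5%. Matches of different sites overlapped 2 times. Sites of members whose values recur in the results are printed 5′ to 3′ on the coding strand (R64, RefSeq), with the match in capitals. Reverse means that the site lies on the other strand, so that the capitals are its reverse complement.
DAN1 AR1 (chrX:709871-709896, minus): aacaaaacaTCGTTCAGgaacagaga
DAN4 AR1 (chrX:715920-715945, minus): agatctccaTCGTTCAGgaactgtaa
PAU4 AR1 (chrXII:1062677-1062702, plus): atgtatgatTCGTTCAGaaacaagag
PAU23 AR1 (chrXII:223490-223515, minus): atattgcccTCGTTCAGagggcacag
PAU24 AR1, reverse (chrII:808616-808641, plus): aggtggcctCTTAACGAgggttcaaa
DAN1 sterol response element, reverse (chrX:709895-709919, minus): gccaagatcTATACGAggcctctaa
PAU5 sterol response element, reverse (chrVI:99836-99860, minus): cgtgtttctTATACGAagtgcagca
DAN1 Rox1 core, reverse (chrX:709932-709955, minus): aggcaataaAACAATacaacgcgt
TIR1 Rox1 core, reverse (chrV:174903-174926, plus): aaggaacccAACAATacaatagcg
TIR3 Rox1 core (chrIX:333475-333498, plus): aggcgacccATTGTTcctgtttac
All 6 DAN and TIR genes held the Rox1 core, and 3 of them held AR1 (*DAN1*, *DAN4*, *TIR4*). *PAU5* and *PAU7* held no AR1 match in this window. The run printed for *PAU4* is the same in *PAU3*, *PAU9*, *PAU11* and *PAU16*, which share this stretch. A match is only a run of letters and was not tested for binding.

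How many copies had reads depended on age and sugar. At least 1 read was counted in some sample for 19 members on glucose at log, 24 at 24 h and 26 at 48 h, and on galactose for 19, 23 and 24. In sorted P_GPD-HAP4 cells these were 27 members in the low WGA fraction, 22 in the medium and 18 in the high one, and in the shift series 24 to 26 in each of the 4 late groups. Deletion strains had 19 to 27 in each sample at 48 h, against 22 and 25 in the WT pair. In these glucose and galactose WT groups *PAU1*, *PAU14*, *PAU21* and *PAU22* had none, and 13 members had at least 10 reads in every glucose sample at 48 h, against 7 at log. At the depth of the smallest library, 10.8 to 14.5 members would be seen per glucose sample at log, 18.6 to 20.2 at 24 h and 19.9 to 22.7 at 48 h, and on galactose 10.9 to 13.8 at log, 14.9 to 16.3 at 24 h and 16.0 to 17.4 at 48 h.

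The family was a small part of the mRNA, and in young cells on glucose the TIR genes made up most of it. On glucose all members together took 86.4 to 90.2 RPM at log, 156.2 to 165.2 at 24 h and 215.5 to 279.4 at 48 h. The PAU genes held 9.16 to 11.0% of these reads at log, 22.5 to 28.5% at 24 h and 35.3 to 44.7% at 48 h. On galactose their share was 17.9 to 20.5% at log, 19.3 to 27.5% at 24 h and 21.4 to 23.7% at 48 h. Per kilobase, on the scale of normalised counts, *PAU23* (680), *TIR1* (424) and *PAU7* (384) led on glucose at 48 h, against *TIR1* (390.1), *TIR3* (292.0) and *PAU23* (92.0) at log. On galactose *TIR1* (406) and *PAU23* (301) led at 48 h, against *PAU23* (140.3) and *TIR3* (133.8) at log, where *TIR1* stood at 44.8.

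With age on glucose, several PAU genes rose and *TIR3* fell. In these bulk samples a change in the share of cells with the RNA and a change in RNA per cell cannot be told apart. *PAU23*, a wall mannoprotein gene also named DAN2, had 264, 242, 254 and 260.1 normalised counts at 48 h, against 31.5, 34.4 and 37.6 at log. The groups were far apart, and *PAU23* was 3.62-fold higher after quantile normalisation (log2 change 1.86 ± 0.13 SE, limma adjusted p = 2.44e-06). Quantile normalisation gives every sample the same distribution of values, and these folds are smaller than those of the counts (log2 change 2.89 for *PAU23* on the deposited values). *PAU5*, a seripauperin known from anaerobic and wine fermentations, had 73.9, 77.9, 53.1 and 65.2 counts at 48 h, against 6.74, 4.92 and 2.09 at log. It was 5-fold higher (2.32 ± 0.35, adjusted p = 0.000256), without overlap. *PAU24* (DAN3) had 33.8, 32.4, 29.5 and 27.1 counts at 48 h, against 4.50, 2.46 and 1.04 at log, again without overlap (1.91 ± 0.42, limma adjusted p = 0.0027). Its call was lost without the 48 h replicate E30_1 or E30_2.

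2 copies with almost no reads at log gave the largest changes. *PAU2* had 61.2, 50.6, 42.3 and 64.5 counts at 48 h, against 2.25, 0 and 1.04 at log. As only 3 reads stood at log against 268 at 48 h, the ratio was 49.6, with a 95% counting interval from 16.8 to 242 (limma log2 change 3.96 ± 0.46, adjusted p = 5.25e-05). *PAU4*, at the right end of chromosome XII beyond the rDNA, had 21.1, 31.4, 21.6 and 31.5 counts at 48 h, against 0, 1.23 and 0 at log (adjusted p = 0.000208). Its log samples held 1 read, which gives a ratio of 70.0 with an interval from 12.3 to 2790. These intervals cover counting error only.

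The TIR genes, whose products are wall mannoproteins, included no gene called higher on the quantile-normalised scale. *TIR3* had 113, 118, 143 and 141 counts at 48 h, against 242, 210.1 and 258 at log. Every sample at 48 h was below every sample at log, and *TIR3* fell by 1.59 ± 0.15 on the log2 scale (limma adjusted p = 1.43e-05). *TIR1*, also induced by cold, had 236, 265, 313 and 484 counts at 48 h, against 283, 329 and 283 at log, so that the groups overlapped (−0.25 ± 0.24, adjusted p = 0.368). *TIR2* and *TIR4* had 83.0 to 133 and 108 to 159 counts at 48 h, against 42.8 to 61.8 and 77.2 to 89.9 at log, without overlap, but were called higher only on the deposited scale and lay below 0 after quantile normalisation.

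*DAN1* and *DAN4* were called at the earlier age. *DAN1* had 15.5, 27.5, 30.9 and 12.7 counts at 24 h, against 4.50, 0 and 1.04 at log. At 48 h it had 13.4, 9.11, 14.7 and 18.3. It was called at 24 h (2.64 ± 0.66, limma adjusted p = 0.00895) and not at 48 h (1.57 ± 0.68, adjusted p = 0.0647); the difference between 24 h and 48 h was not tested. *DAN4*, the longest member, had 220, 230, 212 and 203 counts at 24 h, against 94.4, 93.4 and 125 at log (0.68 ± 0.12, adjusted p = 0.00187), and 196 to 299 at 48 h (0.67 ± 0.19, adjusted p = 0.0110). In the single sample at 72 h on glucose *DAN1* reached 70.0 and *TIR1* 599 counts.

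**Figure D2:**
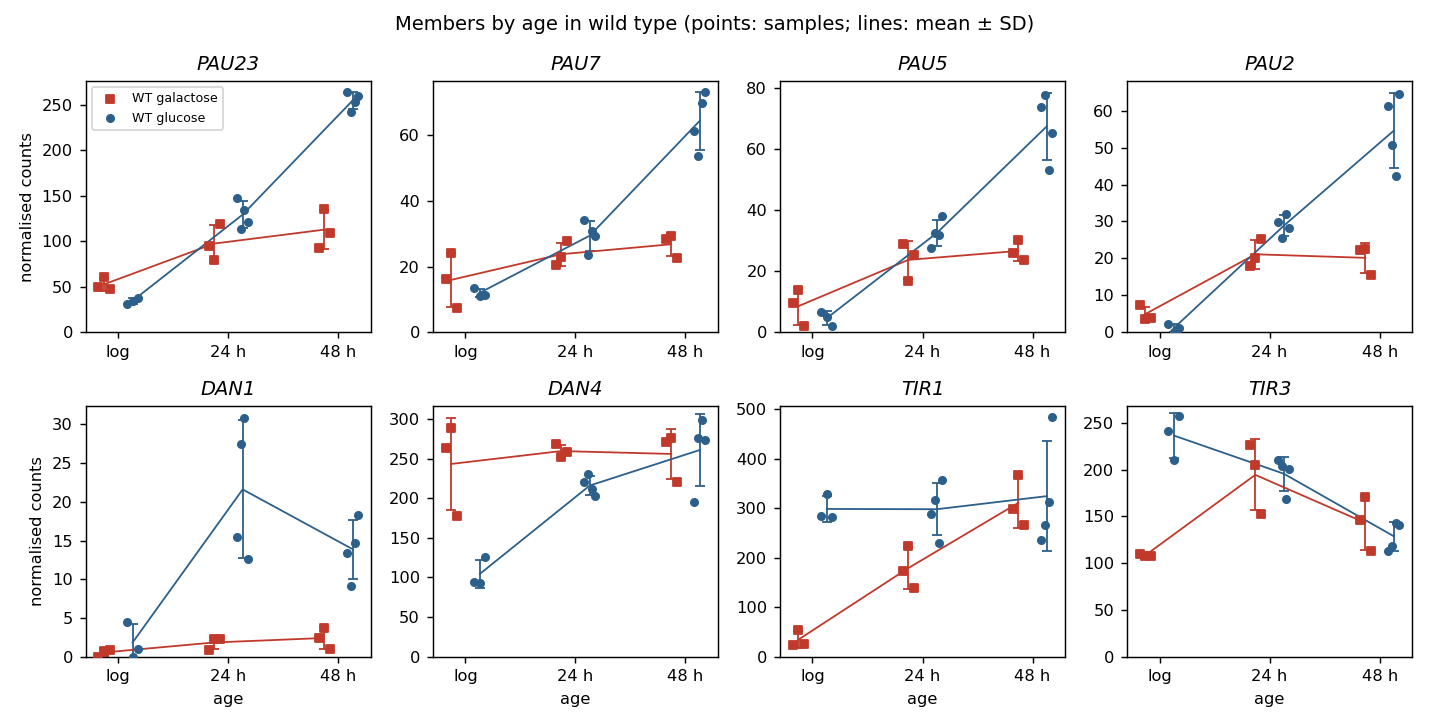
Normalised counts of 8 members at log phase, 24 h and 48 h in WT on galactose (red squares, left) and glucose (blue circles, right), with 1 point per sample and lines through group means with SD bars. *PAU23* on glucose sits between 242 and 264 at 48 h, above all galactose samples, while *TIR1* on galactose lies at 266 to 367 at 48 h, against 23.4 to 54.2 at log.

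Over the family, 5 of 16 members tested at 48 h on glucose were called higher and 1 lower at an adjusted p under 0.01, against 21.3% and 30.4% of 5974 genes. The median change was 0.93 over these members, 1.61 over their 10 PAU genes and −0.12 over all genes. At 24 h 6 of 15 members were called higher and 1 lower, against 14.4% and 17.6% of genes. On the deposited values 10 were called higher and none lower, the *TIR3* call being lost, with the share over all genes not given. At 48 h 13 of the 16 lay above log without overlap, against 35.7% of genes. The other 14 of the 30 members had a mean log2 value under the filter of 2 (4 normalised counts as a geometric mean), and several of those tested passed it only through their 48 h samples. Of the higher calls, *PAU2*, *PAU4* and *PAU24* had a mean deposited log2 value under 2 at log. The same holds for *DAN1*, called at 24 h, so these counts are a description. Other nuclear genes within 25 kb of an end had a median change of 0.10 at 48 h, and 25.4% of them were called higher.

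The scale decided much of this count. On the deposited values, scaled by size factor only, 13 of the 16 members were called higher and 1 lower at 48 h, with a median change of 2.51, and the 8 added calls were *DAN1*, *DAN4*, *PAU3*, *PAU7*, *PAU12*, *PAU17*, *TIR2* and *TIR4*. *PAU15*, *PAU17*, *TIR1*, *TIR2* and *TIR4* changed sign between both scales, whereas *PAU2*, *PAU4*, *PAU5*, *PAU23* and *PAU24* were positive and *TIR3* negative on both. The median of all genes was 0.04 on the deposited scale, and 1799 genes were called higher and 1583 lower, against 1274 and 1817 after quantile normalisation. At 24 h the replicate block left 3 members called, and leaving out the WT 24 h replicate lane6854 or E34 left 3 and E30_1 or E30_2 left 4.

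**Figure D3:**
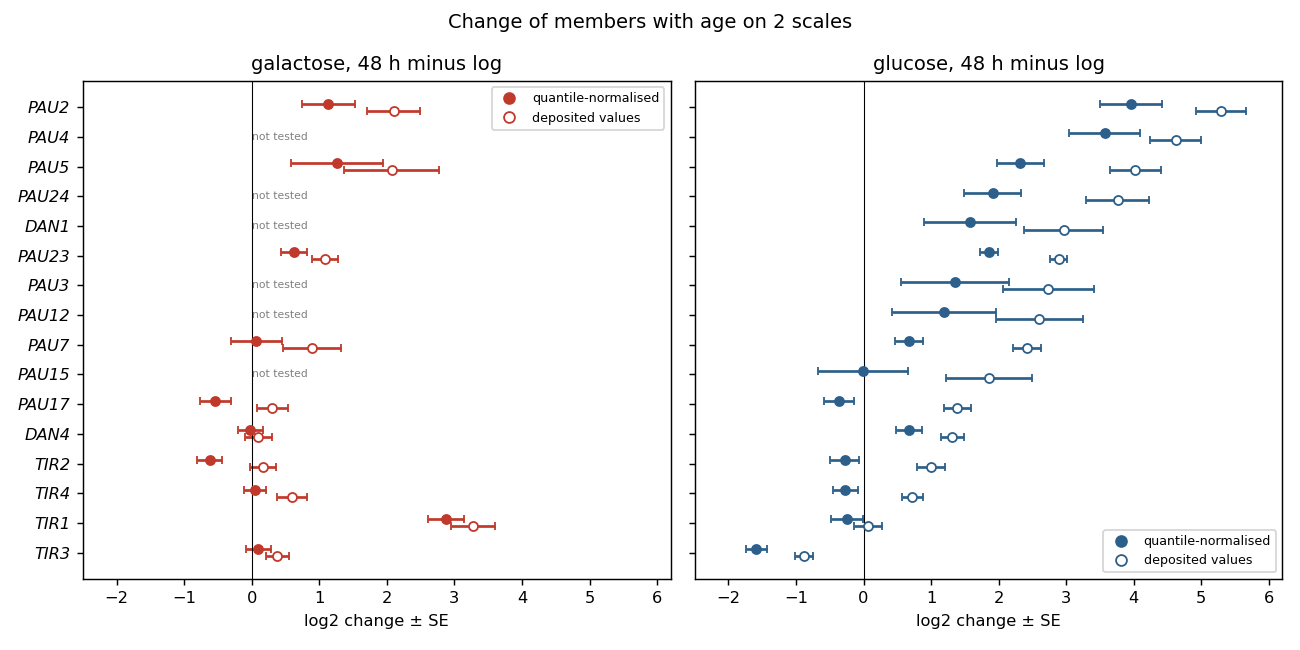
Log2 change ± SE from log to 48 h for the 16 members tested on glucose, on galactose (left, red) and glucose (right, blue), after quantile normalisation (filled) and on the deposited values (open). The deposited values lie to the right of the quantile-normalised ones for every member, *TIR1* stands out on galactose, and *PAU2* and *PAU4* on glucose.

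On galactose *TIR1* rose with age. *TIR1* had 299, 367 and 266 counts at 48 h, against 23.4, 54.2 and 25.3 at log, and 173, 224 and 139 at 24 h. The ages did not overlap, and at 48 h *TIR1* was 7.33-fold higher than at log (2.87 ± 0.26, limma adjusted p = 0.000636). It was the only call among 10 tested members, against 3.45% of 5859 genes called higher and 2.03% lower, and also at 24 h among 11 (2.14 ± 0.31, adjusted p = 0.00914; 1.87% higher and 0.651% lower). The 24 h call was lost with the replicate block and without the 24 h replicates lane6854, E56 or E34 or the log replicate E34.

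The other members on galactose were not called after quantile normalisation. *PAU23* had 92.7, 136 and 110 counts at 48 h, against 49.2, 60.7 and 47.8 at log, without overlap (0.63 ± 0.19, limma adjusted p = 0.0594). On the deposited values *PAU23* was called higher (1.09, limma adjusted p = 0.00917). *DAN4* had 271, 276 and 220 counts at 48 h, against 264, 289 and 177 at log, with overlap. *DAN1* had 2.47, 3.77 and 1.03 counts at 48 h, against 0, 0.733 and 0.937 at log. *PAU4* had 2 reads in the 3 samples at 48 h. Neither reached the level needed for a test. In the shift series *TIR1* had 292, 189 and 260 counts at 24 h on galactose, against 39.3, 32.3 and 47.8 at log (2.47 ± 0.20, adjusted p = 8.9e-05). *TIR3* was also called there (0.62 ± 0.12, adjusted p = 0.00613), so that 2 of 11 members were higher, against 9.67% of genes higher and 7.67% lower. Without 24 h replicate 2 or 3 or any log replicate, 1 call was left. On the deposited values *PAU23* was also called higher at 24 h in this series (0.80, limma adjusted p = 0.00397).

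Galactose cells started low in *TIR1* and *TIR3*. At log, *TIR1* had 23.4, 54.2 and 25.3 counts on galactose, against 283, 329 and 283 on glucose (−3.47 ± 0.27, limma adjusted p = 0.00029). *TIR3* had 110, 108 and 108 counts on galactose, against 242, 210.1 and 258 on glucose (−1.39 ± 0.13, adjusted p = 0.000661). Neither gene overlapped between sugars, and these were the 2 calls among 9 members, both lower, against 4.53% of 5789 genes called lower and 7.51% higher. *DAN4* ran the other way without a call, at 264, 289 and 177 counts on galactose, against 94.4, 93.4 and 125 on glucose (0.96 ± 0.22, adjusted p = 0.0211), and was called higher on the deposited values (1.20, adjusted p = 0.00737). Without the galactose replicate lane6854, 4 members were called.

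At 48 h *PAU23*, *PAU4* and *TIR2* were called lower on galactose than on glucose. *PAU23* had 92.7, 136 and 110 counts on galactose, against 264, 242, 254 and 260.1 on glucose (−0.95 ± 0.12, limma adjusted p = 0.000254). *PAU4* had 2 reads on galactose and 126 on glucose, a ratio of 0.0268 with a counting interval from 0.00321 to 0.0989 (adjusted p = 0.000333). *TIR2* had 37.1, 42.5 and 47.5 counts on galactose, against 88.7, 83.0, 116 and 133 on glucose (−0.83 ± 0.20, adjusted p = 0.00843). These were the 3 calls among 17 members, all lower, against 10.0% of genes called lower and 8.89% higher. *PAU4* passed the filter only through its glucose samples, where it is high, so this count is a description. On the deposited values 11 were called, all lower, with the share over all genes not given. Of 17 members, 13 did not overlap, against 23.4% of genes. *TIR1* and *TIR3* overlapped between sugars, and the sign of *TIR1* turned with the scale. The *TIR2* call was lost without any 1 of 6 of the 7 libraries, all but the glucose replicate E30_2.

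The change with age itself differed between the sugars for 4 of 12 members, 2 in each direction, against 6.57% of 5917 genes called higher and 8.55% lower. The change on galactose minus that on glucose was −3.02 ± 0.60 for *PAU2* (limma adjusted p = 0.00259) and −1.36 ± 0.22 for *PAU23* (adjusted p = 0.000753). It was 3.00 ± 0.38 for *TIR1* (adjusted p = 0.000161) and 1.72 ± 0.24 for *TIR3* (adjusted p = 0.000319). *PAU2* and *PAU23* thus had a smaller change on galactose than on glucose, and *TIR1* and *TIR3* a larger one in the signed sense. On the deposited values 2 were called higher and 4 lower, with *DAN4* (−1.22, adjusted p = 0.00394) and *PAU17* (−1.08, adjusted p = 0.00742) added. The contrast shares its samples with the comparisons within each sugar.

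On fructose, another fermentable sugar, 3 PAU genes rose and *TIR3* fell. *PAU23* had 199.7 and 209.8 counts at 48 h, against 29.0 and 29.6 at log, and *TIR3* had 124 and 126, against 238 and 277. Of 11 members, *PAU2*, *PAU5* and *PAU23* were called higher and *TIR3* lower, against 14.1% and 16.6% of genes. *PAU2* had a mean deposited log2 value under the filter of 2 at log, so this count is a description. With either 48 h replicate left out, none was called. Single samples at 48 h on acetate, sucrose, raffinose and the raffinose/galactose mix had 150.6, 188.9, 220.1 and 156.0 RPM over the family, against 104.8, 84.8, 120.3 and 67.4 at log.

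Mutants on galactose were compared with WT on the same sugar. All these mutant samples come from experiment E56, which holds 1 of the 3 WT samples at each age, so strain and experiment are mostly mixed. In *cox9*Δ *gal80*Δ, which lacks a cytochrome oxidase subunit and the Gal4 inhibitor, *PAU24* had 121 and 42.4 counts at 48 h, against 13.6, 7.55 and 5.17 in WT, and *PAU23* had 344 and 188, against 92.7, 136 and 110. *DAN1* had 60.6 and 10.2 counts, against 2.47, 3.77 and 1.03 in WT. The WT sample of E56 had 7.55 counts of *PAU24*, 136 of *PAU23* and 3.77 of *DAN1*, below both mutant samples. All mutant values lay above all WT values for these genes and for 12 of 15 members, against 24.1% of genes. None of the 15 was called, against 0.819% of genes called higher and 2.26% lower, with 7 at an unadjusted p under 0.05 (*PAU24* 2.60 ± 0.48, limma adjusted p = 0.0130). Both mutant samples differed widely from each other, and without the second one 3 members were called. In *cat8*Δ, which lacks an activator of gluconeogenesis, none of 13 members was called by limma at 48 h (2 at an unadjusted p under 0.05; 0 on the deposited values), against 0.101% of genes called higher and 0.353% lower.

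The AMPK subunit mutant *snf4*Δ gave 1 call. At 24 h *DAN4* had 407 and 375 counts in *snf4*Δ, against 268, 252 (E56) and 258 in WT, without overlap (0.57 ± 0.09, limma adjusted p = 0.00256). It was the only one of 13 members, against 6.4% of genes called higher and 6.13% lower, and it was lost without either mutant sample or the WT replicate E34.

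P_GPD-HAP4 on glucose had lower *TIR1* in young cells and no call in old ones. At log *TIR1* had 172 and 136 counts in P_GPD-HAP4, against 283, 329 and 283 in WT (−0.98 ± 0.14, limma adjusted p = 0.00662), the only call among 9 members, against 3.25% of genes called higher and 0.0689% lower. Each of the 5 left-out libraries removed this call. At 48 h none of 18 members was called by limma, against 0.396% of genes called higher and 0.033% lower (7 at an unadjusted p under 0.05; 0 on the deposited values), although 17 of 18 changes were negative and 8 of 18 members did not overlap between strains, all lower, against 8.82% of genes. *DAN1* had 1.97 and 2.70 counts in P_GPD-HAP4, against 13.4, 9.11, 14.7 and 18.3 in WT (−2.49 ± 0.49, adjusted p = 0.0457), and *PAU4* had 9.83 and 9.89, against 21.1 to 31.5.

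Sorted fractions of cells of 1 culture age differed widely. *PAU23* had 6202 and 5091 counts in the low WGA fraction of P_GPD-HAP4 cells, against 122 and 91.2 in the high fraction, and 440 and 254 in the medium fraction. It was 53.2-fold higher in low than in high cells on the deposited scale (5.73 ± 0.27, limma adjusted p = 1.33e-05). WT cells, sorted once, had 1144 *PAU23* counts in the low fraction and 121 in the high one. *PAU17*, its nearest relative, had 684 and 857 counts in low cells, against 15.9 and 15.2 in high cells (5.62 ± 0.45, adjusted p = 9.23e-05).

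Other PAU genes and *DAN1* followed. *PAU24* had 568 and 641 counts in low cells, against 14.3 and 16.9 in high cells (adjusted p = 0.000148 by limma), and *PAU12* had 277 and 280, against 6.35 and 5.07. *PAU4* had 888 and 1131 counts in low cells, against 4.77 and 0 in high cells, or 396 reads against 3, a ratio of 442 (counting interval 150 to 2150). *DAN1* had 116 and 135 counts in low cells and no read in high cells, so it was at least 25.6-fold higher (3 reads per library as the floor; limma adjusted p = 0.00106). *PAU11* and *PAU13* were at least 14.1-fold and 13.1-fold higher by the same floor. In WT *DAN1* had 234 counts in low cells and 27.1 in high cells.

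The TIR genes split. *TIR2* had 277 and 334 counts in low cells, against 33.4 and 47.3 in high cells (2.94 ± 0.47, limma adjusted p = 0.00191), and *TIR4* had 422 and 581, against 124 and 65.9 (2.45 ± 0.44, adjusted p = 0.00317). *TIR1* had 335 and 591 counts in low cells, against 591 and 399 in high cells, with overlap (−0.13 ± 0.37, adjusted p = 0.797), while the WT pair had 1625 in low and 584 in high cells. *TIR3* had 146 and 270 counts, against 111 and 89.5, and was not called (0.99 ± 0.47, adjusted p = 0.118). After quantile normalisation the calls of *TIR2* (2.015 ± 0.435, adjusted p = 0.0179) and *TIR4* (1.89 ± 0.42, adjusted p = 0.0194) were lost.

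**Figure D4:**
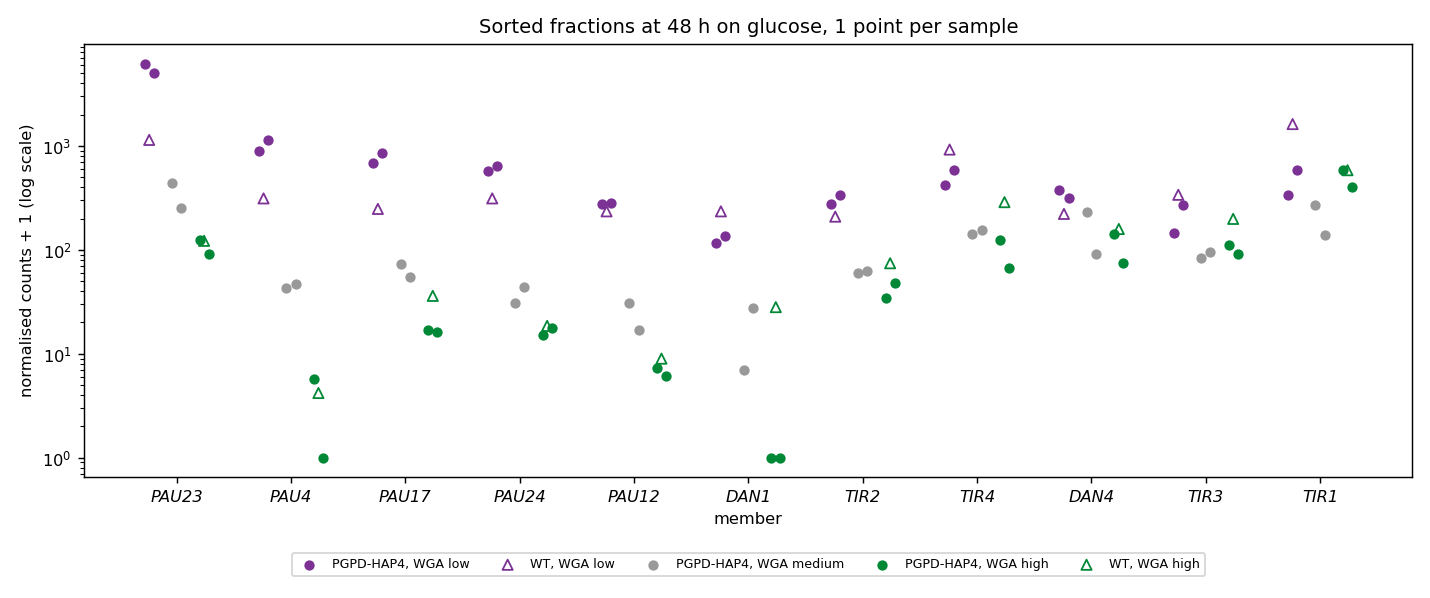
Normalised counts plus 1 (log scale) of 11 members in the low (purple), medium (grey) and high (green) WGA fractions at 48 h on glucose, with 1 filled circle per P_GPD-HAP4 sample and 1 open triangle per WT sample. *PAU23* spans 91.2 to 6202 counts, and the fractions of *TIR1* overlap.

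In all, 13 of 24 members were called higher in low cells and none lower, against 15.4% of 6291 genes called higher and 12.7% lower. On the log2 values 23 of 24 did not overlap, against 40.8%. *PAU9* and *PAU16* had no read in the E66 low library or in high cells. Their lack of overlap rests on the level given to 0 reads, which differs between libraries. This level also enters the changes of other members with 0 reads. The other 6 of the 30 were under the filter. *DAN1*, *PAU9*, *PAU11*, *PAU13*, *PAU16* and *PAU19* had no read in high cells and passed it only through the low fraction, where they are high. *PAU4* and *PAU10* (3 and 0 reads in the high libraries) and *PAU8* and *PAU20* (1 and 0) also passed it only there. So these counts are a description. The median change was 0.14 over all genes, 1.27 over the 1551 other genes of lowest mean, 1.61 over other genes near chromosome ends and 2.86 over genes of chromosome XII beyond the rDNA (ChrXIIr), where *PAU4* lies. Left of the rDNA, where *PAU17* and *PAU23* lie, the median was 1.59, and the part of these values in the result was not tested. Quantile normalisation left 6 calls (*DAN1*, *PAU4*, *PAU12*, *PAU17*, *PAU23*, *PAU24*) and moved the median of all genes to −0.16, while the replicate block gave 17. The first low library holds 565971 reads, so that *DAN1* rests on 8 reads there, but *PAU23* on 426; at 561582 reads 24.0 and 21.7 members would be seen in low cells, against 11.1 and 10.5 in high cells.

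The shift series asked whether the early or the late sugar sets the level in old cells. With galactose late, *PAU23* had 349, 292 and 285 counts after early glucose, against 160, 123 and 125 after early galactose, without overlap (1.00 ± 0.11, limma adjusted p = 4.74e-05). *PAU24* had 77.1, 36.6 and 61.6 counts after early glucose, against 7.34, 12.1 and 5.26 after early galactose (2.23 ± 0.36, adjusted p = 0.000524). *TIR1* ran the other way, with 262, 245 and 202 counts after early glucose, against 580.2, 452 and 503 after early galactose (−1.19 ± 0.11, adjusted p = 1.16e-05). *PAU4*, *PAU5* and *TIR4* were also higher, giving 5 of 18 members called higher and 1 lower, against 12.7% and 13.5% of genes. *PAU4* passed the filter only through early glucose, where it is high, so this count is a description. *PAU4* lost its call without any glucose to galactose replicate, and *PAU5* without glucose to galactose replicate 1 or 2 or any galactose to galactose replicate.

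With glucose late, the early sugar gave no call. *PAU23* had 316, 381 and 375 counts after early glucose, against 258, 133 and 152 after early galactose, without overlap (0.88 ± 0.18, limma adjusted p = 0.0117). None of 18 members was called by limma, against 2.72% of genes called higher and 1.72% lower, although 10 had an unadjusted p under 0.05. On the deposited values 5 were called, by voom on recovered reads 4, and with the replicate block 4. The share over all genes is not given for these settings, so these counts are a description.

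The late sugar gave 1 call in each comparison. After early glucose, *TIR1* had 262, 245 and 202 counts on late galactose, against 326, 464 and 431 on late glucose (−0.76 ± 0.13, limma adjusted p = 0.00377), the only call among 19, against 5.19% of genes called higher and 3.53% lower. After early galactose, *TIR2* had 95.0, 75.2 and 87.5 counts on late glucose, against 56.9, 39.6 and 49.6 on late galactose (0.68 ± 0.17, adjusted p = 0.00946), the only call among 16, against 6.5% of genes called higher and 7.94% lower. Both calls were lost when single libraries were left out, the first without replicate 2 or 3 of either group, the second without replicate 1 or 2 on late glucose or any replicate on late galactose. The 4 comparisons share their groups. In the first 24 h of this series on glucose, 4 of 12 members were called higher (*PAU2*, *PAU5*, *PAU23*, *TIR4*), against 12.5% of genes called higher and 13.4% lower, and 1 was left without log replicate 1 or 3 or 24 h replicate 2 or 3. *PAU2* and *PAU5* had mean deposited log2 values under the filter of 2 at log, so this count is a description.

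Deletion strains on glucose were single samples, so differences from the WT pair have no replicate check, and the experiments that hold these strains held no WT, so that experiment and strain cannot be told apart. Strains without the respiratory activator Hap4 or the glucose repressor Mig1 had the highest values of several members. At 48 h *DAN1* had 999 counts in *hap4*Δ and 899 in *mig1*Δ, against 9.33 and 18.8 in WT. *TIR4* had 4105 and 3321 counts in these strains, against 148 and 154, and *TIR1* had 3688 and 4886, against 272 and 496. *PAU24* had 970.3 and 1033 counts, against 27.8 and 33.2, and *PAU5* had 811 and 1054, against 66.9 and 79.8.

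Other members lay closer to WT. *PAU23* had 205 counts in *hap4*Δ and 323 in *mig1*Δ at 48 h, against 248 and 267 in WT, and *DAN4* had 448 and 500.3, above 280.3 and 282 in WT. In each strain 15 of 23 members that passed the filter were at least 4-fold higher, against 1.27% of genes in *hap4*Δ and 1.03% in *mig1*Δ, and none was 4-fold lower. Outside the family, the hypoxic gene *ANB1* had 2080 counts in *hap4*Δ and 1740 in *mig1*Δ, against 103.7 and 227.7 in WT, and the sterol transporter gene *AUS1* was 8.62-fold and 6.2-fold higher. Most of the 15 listed hypoxic genes did not follow. At least 4-fold higher were 3 in *hap4*Δ and 2 in *mig1*Δ, with median log2 differences of 0.49 and 0.357. *CYC7* was lower, at 0.278-fold and 0.435-fold. The filter admits a member also through a high mutant value alone. At log *hap4*Δ and *mig1*Δ had 3 such members of 10 each, *DAN1*, *TIR1* and *PAU5*, against 0.947% and 0.911% of genes.

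*rox1*Δ, which lacks the haem-dependent repressor, was high in *DAN1*, *TIR1* and *TIR3* at log. *DAN4*, *TIR4* and *TIR2* stood at 0.97-fold, 1.25-fold and 1.79-fold of WT. *DAN1* had 335 counts in *rox1*Δ, against 1.06 and 4.61 in WT. *TIR1* had 3485 counts, against 288 and 290.4, and *TIR3* had 1046, against 248 and 262. These were 3 of 10 members, against 0.224% of genes, and the median difference of the PAU genes was 0.02. At 48 h *DAN1* and *TIR1* were 10.3-fold and 5.0-fold higher, and at log the hypoxic genes *ANB1* and *HEM13*, known Rox1 targets, were 97.3-fold and 10.8-fold higher. Of the 15 listed hypoxic genes, 3 were at least 4-fold higher in *rox1*Δ at log, with a median log2 difference of 0.712.

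Fewer members differed in the other strains at 48 h. At least 4-fold higher were 4 of 20 members each in *adr1*Δ, *dot6*Δ *tod6*Δ and *tec1*Δ (0.409%, 0.377% and 0.36% of genes), 2 of 19 in *gcn4*Δ and *yak1*Δ (0.197% and 0.245%), 2 of 18 in *rox1*Δ (0.197%), 1 in *sip4*Δ (0.246%) and *pmr1*Δ (0.493%), and none in *cat8*Δ (0.446%), *clb5*Δ (0.607%) and *snf4*Δ (0.132%). The *pmr1*Δ member was *PAU4*, with 321.5 counts at 48 h, against 32.1 and 32.3 in WT, and 120.0 at 24 h, against 10.4 and 13.0. At 24 h it was 1 of 17 members of *pmr1*Δ (0.435%). At log 4 of 12 were at least 4-fold higher there (*PAU3*, *PAU5*, *PAU15* and *DAN1*), against 0.896% of genes. Of these, *PAU3* had 12.15 counts, against 8.07 and 0 in WT, so its fold rests on the level given to 0 reads. The next highest *PAU4* value at 48 h was 88.3, in *hap4*Δ.

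**Figure D5:**
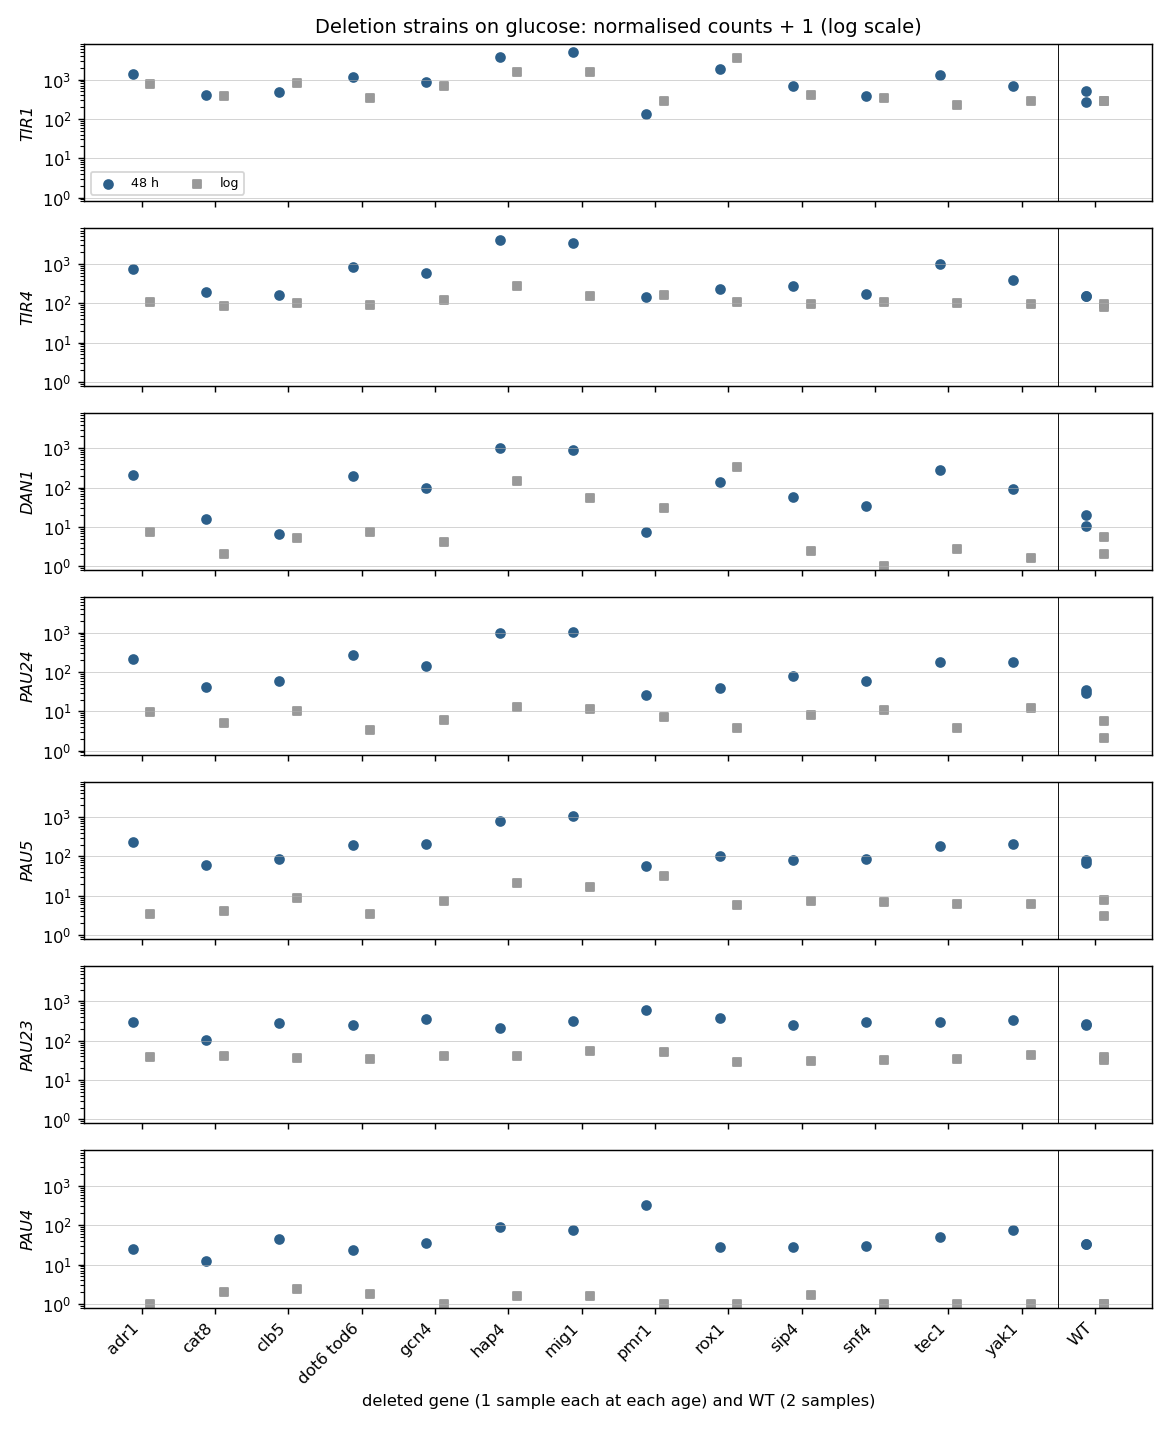
Normalised counts plus 1 (log scale) of 7 members in 13 deletion strains, 1 sample at each age, and in WT, 2 samples, on glucose at 48 h (blue circles) and log (grey squares). *hap4*Δ and *mig1*Δ stand highest at 48 h for *TIR1*, *TIR4*, *DAN1*, *PAU24* and *PAU5* but not for *PAU23*, *rox1*Δ stands highest at log for *TIR1* and *DAN1*, and *pmr1*Δ at 48 h for *PAU4*.

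Genes around the family gave the following values. Of all genes tested, 21.3% were called higher and 30.4% lower at 48 h on glucose, 3.45% and 2.03% on galactose, and 15.4% and 12.7% in low WGA cells. Of 15 haem-repressed and hypoxic genes, 4 were called higher and 4 lower at 48 h on glucose, among them the cytochrome *c* isoform gene *CYC7* (2.21 ± 0.20) and the ADP/ATP carrier gene *AAC3* (−2.47 ± 0.18). Of 15 measured aerobic wall mannoprotein genes, 13 were called higher on glucose and 12 on galactose, with *PIR3* at 7.02 ± 0.16 and 5.47 ± 0.11. *UPC2* fell by 0.65 ± 0.11 on glucose (adjusted p = 0.000471), *HAP1* was 0.42 ± 0.10 higher (adjusted p = 0.00406) and *ROX1* was not called (−0.20, adjusted p = 0.335). Of the 11 regulators 2 were called higher and 3 lower, and 4 of 12 tested haploid-specific genes were called higher and 1 lower, led by the cell fusion gene *FUS1* (4.15 ± 0.23). In low WGA cells 4 regulators were called higher and none lower, with the Upc2 relative *ECM22* at 3.24 ± 0.24 and *UPC2* at 1.58 ± 0.34. *CWP1* and *CWP2*, named from the 15 aerobic wall genes, fell by 2.37 ± 0.25 and 2.58 ± 0.40 there, which does not speak for the whole list.

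Likeness between profiles was described over the 59 carbon source samples, which share libraries and ages. On the log2 scale Pearson's r ran from 0.504 (*PAU15* with *PAU17*) to 0.933 (*PAU5* with *PAU23*) over 21 pairs of PAU genes, with a median of 0.735. Over 42 pairs of a PAU gene with a DAN or TIR gene it ran from −0.261 (*PAU15* with *TIR3*) to 0.682 (*PAU17* with *DAN1*). Within the DAN and TIR genes it ran from −0.443 (*TIR3* with *DAN4*) to 0.817 (*DAN1* with *TIR4*). The genes outside the family most like the PAU mean were *YFR018C* (0.927), *CCW14* (0.919), *BIT2* (0.916), *THI4* (0.915) and *ERR3* (0.906). Those most like the DAN and TIR mean were *MCH5* (0.795), *FLO1* (0.787), *HUG1* (0.786), *AYT1* (0.781) and *RNR3* (0.78).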

How the data were processed

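Per the labels and the study's methods, the authors sequenced poly(A) RNA (single-end), trimmed reads with Trim Galore v0.6.6, aligned them with HISAT2 v2.1.0 to R64-1-1 and counted them in SeqMonk on the opposite strand. The deposited values are log2 counts, scaled to size factors table by table. Genes without reads sit at 0.9 of 1 read, and whole reads were recovered for 100% of values in every sample (tolerance 0.05). How reads matching several copies were placed is not given in the sources used here. Groups were compared within a table only.

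Main tests used limma v3.58.1 (R v4.3.3, trended eBayes) on quantile-normalised log2 values, or on deposited values for sorted fractions, over nuclear genes with a mean log2 value of at least 2 (4 normalised counts as a geometric mean), with Benjamini-Hochberg adjustment over all of them and calls under 0.01. SE is that of the log2 change. In the shift series replicate numbers paired samples for glucose at 24 h (lowest correlation 0.159), late galactose against late glucose after glucose (0.102) and the early sugars before galactose (0.133). On simulated data limma recovered 78.5% to 99.0% of genes changed by 1.5 (log2), with at most 3 false calls. Floors are 3 reads per library, and intervals are 95% Clopper-Pearson. Genes named are DAN1, DAN4, TIR1 to TIR4, up to 6 called members of largest change, the 3 PAU genes highest per kilobase, up to 4 called genes of other lists with ROX1, UPC2 and HAP1, and 5 genes by likeness; others were named after their values were seen. Members, lists (regulators, hypoxic, aerobic wall, haploid-specific) and tests were chosen with earlier results of these data known. Alternatives were another scale, no filter, a pseudocount of 1, voom on recovered reads, 1 fit over the table, the replicate block and each library left out. The design named protein identity; reading frame identity was used.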

Additional observations from a re-analysis of the deposited data

Results flagged for a closer look

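*PAU12* stood out in 1 of 33 member groups of 4 or more samples with enough reads. On glucose at 48 h WT replicate E34 had 21.6 normalised counts, against 7.33 to 9.11 in the others; chance gives such a gap in about 1 in 20 groups.

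The change with age differed between galactose and glucose, by the contrast of both changes, for *PAU2* (−3.02) and *PAU23* (−1.36), lower on galactose, and for *TIR1* (3.00) and *TIR3* (1.72), higher on galactose.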

How the results depend on the processing

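Counts here are members called at an adjusted p under 0.01, with the number as reported in brackets. Shares over all genes are not given for these settings, nor above for counts at an unadjusted p. The deposited values of glucose at 48 h are the exception. The counts are therefore a description and cannot be set against the genes as a whole. On the deposited values 10 (7) were called for glucose at 24 h, 3 (2) for the sugars at log, 6 (4) for their difference in ageing, 14 (6) for glucose at 48 h, 2 (1) for galactose at 48 h, 8 (4) for fructose, 11 (3) for galactose against glucose at 48 h, 1 (0) for *cox9*Δ *gal80*Δ, 7 (4) for glucose at 24 h in the shift series, and 5 (0) and 12 (6) for the early sugars before glucose and before galactose. The quantile scale left 6 (13) in sorted fractions. Voom gave 14, 7, 10, 7, 4 and 13 for glucose at 48 h, fructose, the sugars at 48 h, the shift series on glucose, and the early sugars before glucose and before galactose. No filter gave 4 (7) for glucose at 24 h, 0 (1) for galactose at 24 h, 2 (1) at 48 h, 0 (1) for *snf4*Δ, P_GPD-HAP4 at log and each late comparison, 1 (2) for the shift series on galactose and 3 (6) for the early sugars before galactose. One fit over the table gave 3 for galactose at 24 h, 2 at 48 h, 3 for *cox9*Δ *gal80*Δ, 0 for *snf4*Δ and P_GPD-HAP4 at log, 1 for the shift series on galactose, 2 for late galactose after glucose and 2 for the early sugars before glucose. The replicate block gave 3 for glucose at 24 h, 0 for galactose at 24 h and 4 for the early sugars before glucose; elsewhere it gave 6 for glucose at 48 h, 1 for galactose at 48 h, 3 for fructose, 4 for the sugars at 48 h, 17 in sorted fractions and 7 for the early sugars before galactose. Leaving out 1 library gave 3 to 6 (7) and 5 to 9 (6) for glucose at 24 h and 48 h, 0 to 1 and 1 to 1 for galactose, 0 to 3 (4) for fructose, 2 to 4 (2) and 2 to 3 (3) for the sugars at log and 48 h, 4 to 5 (4) for their difference in ageing, 0 to 3 for *cox9*Δ *gal80*Δ, 0 to 0 for *cat8*Δ and for P_GPD-HAP4 at both ages, 0 to 1 for *snf4*Δ, 9 to 19 (13) in sorted fractions, 1 to 3 (4) and 1 to 2 (2) for the shift series on glucose and galactose, 0 to 1 for each late comparison, and 0 to 2 and 4 to 7 for the early sugars before glucose and before galactose. Among called members, 299 values kept their call under the other settings and 41 lost it; with a library left out 254 kept it and 89 lost it, and none turned its direction. Where a left-out library leaves 1 sample in a group, that sample is assumed to vary like the others. The cause of these moves was not tested. Members with a mean log2 value under 2 were not tested, and differences among them were not detectable at this depth.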
